A study of Mus musculus with 6 samples.

Results

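The hypoxia response genes described here are 10 mouse genes, Hif1a and 9 of its known targets outside glycolysis: Vegfa, Car9, Egln1, Egln3, Ankrd37, Bnip3, Ndrg1, P4ha1 and Adm. They were chosen by name, with earlier results of these data known, and the Ensembl identifiers of the count tables were matched to mouse symbols. All 10 were found among 48526 gene identifiers, and all 10 passed the filter on low counts, as did 14531 genes in all. Levels were compared between KP cells grown with doxycycline, which induces a hairpin RNA against Npm1, and the same lines grown without it. Nucleophosmin, the product of Npm1, is a chaperone found mainly in the nucleolus. The labels call the cells KP and say no more of what they are. Total RNA was sequenced from 3 stable lines, named here line 3, line 4 and line 5 after their hairpins. Each line gave 1 library with 100 ng/ml doxycycline and 1 library without it, so there were 3 libraries per group. All 6 libraries, the untreated ones too, came from cells that carry a pLKO.1-Tet on vector with a hairpin and that had been selected with puromycin. Whether each line is a clone or a pool is not given in the sources used here, nor are the length of treatment, the oxygen level and the dates of culture. No library came from doxycycline-treated cells without a hairpin against Npm1, so the drug and the knockdown cannot be told apart.

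The oxygen-regulated alpha subunits of the hypoxia-inducible factors, of which Hif1a encodes the best known, are made at all times. When oxygen is present, prolyl hydroxylases of the EGLN family modify them, the von Hippel-Lindau protein (Vhl) recognises the modified form, and a ubiquitin ligase marks it for destruction. When oxygen is scarce the subunit persists, pairs with the constant partner Arnt and binds hypoxia response elements, whose core letters are ACGTG or GCGTG. Much of the control of Hif1a thus acts on its protein, whereas the counts measure RNA. Among the targets are a growth factor and a peptide for vessels (Vegfa, Adm), an enzyme that exports acid (Car9), the hydroxylases themselves (Egln1, Egln3), a receptor for the removal of mitochondria (Bnip3), a collagen-modifying enzyme (P4ha1) and stress-response genes (Ndrg1, Ankrd37).

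The libraries held 24391198 to 27341036 counts in genes. Npm1, the targeted gene (mm10 chromosome 11, 33152287 to 33163206), was at 67.8, 245 and 399.7 CPM, counts scaled to the size of the library, in lines 3, 4 and 5 with doxycycline, against 2002, 1851 and 1924 CPM without it. The share left was 3.39%, 13.2% and 20.8% in lines 3, 4 and 5, so line 3 had the strongest knockdown (log2 fold change -3.02, SE 0.49, edgeR adjusted p = 0.011). That call ended without the untreated library of line 3 and without line 4, where the adjusted p was 0.0937 and 0.177. Treated libraries differed more among themselves than untreated ones. The chi-square of the counts per degree of freedom was 108 between treated lines 3 and 4, 80.9 between treated lines 3 and 5 and 35.8 between treated lines 4 and 5, and it was 7.86 to 22.6 between untreated libraries. Results are therefore given by line, and with and without the treated library of line 3. With doxycycline 140 genes were called higher and 192 lower, 2.28% of those tested (quasi-likelihood test of edgeR, with p adjusted by Benjamini-Hochberg, under 0.05).

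With doxycycline all 10 hypoxia genes had a fitted log2 fold change below 0, between -1.11 for Adm and -0.17 for Bnip3, with a median of -0.44. None passed the test over all genes (edgeR adjusted p of 0.116 to 0.730), where 1.32% of the genes tested were called lower and 0.963% higher. At an unadjusted p under 0.05, 5 of the 10 were lower and 0 higher, against 7.96% and 8.33% of all genes tested. limma-voom also called 0 of the 10. DESeq2 called 1 lower, Vegfa, where it called 2.69% of all genes lower and 2.26% higher, and edgeR with no filter on low counts called 1 lower, Adm, where it called 2.3% lower and 1.59% higher. The fitted fold change was below 0 in 49.6% of all genes tested, whose median was 0.00. In 7 of the 10 the level was lower with doxycycline in each of the 3 lines, which held for 19.5% of all genes tested. In 4 of the 10, Hif1a, Vegfa, Car9 and Egln3, every treated library was below every untreated one in CPM scaled by TMM, against 11.2% of all genes tested. Scaled by total counts, the groups overlapped for Hif1a and Egln3. Because the 10 genes were chosen with earlier results of these data known, the shares of all genes are a description beside them and not a test. In bulk RNA, fewer cells of a type and less RNA per cell cannot be told apart.

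**Figure D1:**
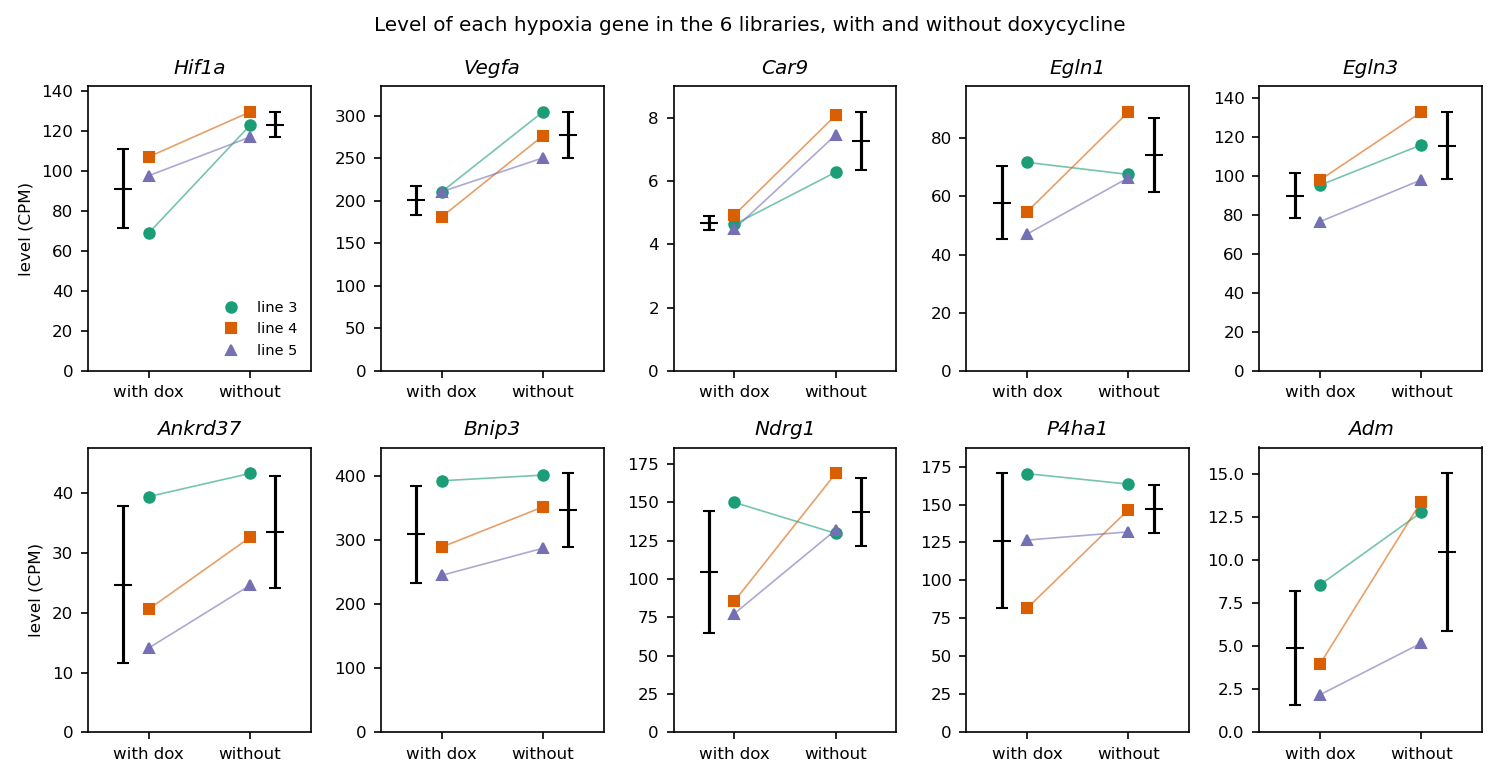
Level in CPM of each hypoxia gene (y axes, linear from 0) in the 3 libraries with doxycycline (left in each panel) and the 3 without (right), with 1 marker per line, a thin line joining both libraries of a line, and the mean with its SD in black. The groups are apart for Hif1a, Vegfa, Car9 and, by a narrow margin, Egln3, while the treated library of line 3 stays near the untreated level for Egln1, Ankrd37, Bnip3, Ndrg1 and P4ha1.

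Sums of macrophage and lymphocyte markers differed between the same groups, while those of endothelial and epithelial markers overlapped. The 12 macrophage markers summed to 195, 285 and 150 CPM in lines 3, 4 and 5 with doxycycline, against 64.4, 63.0 and 64.8 CPM without it. Of these, 8 rose, among them Adgre1, Mpeg1, Lyz2 and Ctss, where 0.963% of all genes tested were called higher. Cd68, Cd14, Fcgr3 and Laptm5 did not pass, with edgeR log2 fold changes of 0.14, -0.14, 0.03 and -0.32. The 9 T and NK lymphocyte markers summed to 0.919 to 3.75 CPM with and 13.4 to 18.3 CPM without doxycycline. Of these, 8 fell, among them Cd3g, Cd3e, Cd2 and Cd3d, where 1.32% of all genes tested were called lower. Lck did not pass (log2 fold change -1.61, edgeR adjusted p = 0.105). Cd3d and Nkg7 were at 0 counts in every treated library. The 5 endothelial markers summed to 0.412 to 0.826 CPM with and 0.768 to 1.33 CPM without doxycycline, and Pecam1, the 1 tested, did not pass (log2 fold change -1.13, edgeR adjusted p = 0.206). The 7 epithelial markers, with Krt8 and Krt18 among them, summed to 11800 to 16500 CPM with and 15500 to 17800 CPM without doxycycline, and 1 fell, Cldn4 (log2 fold change -1.23, edgeR adjusted p = 0.0325, and up to 0.268 when a library or line was left out). Line 4, where the hypoxia targets were lowest relative to untreated cells, had the highest macrophage and the lowest epithelial sum with doxycycline, and the part of these markers in the hypoxia results was not tested.

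Hif1a itself (ENSMUSG00000021109; mm10 chromosome 12, 73901375 to 73947530, plus strand; its longest transcript has 15 exons) was at 69.1, 107 and 97.8 CPM in lines 3, 4 and 5 with doxycycline, against 123, 129.7 and 117 CPM without it. The treated library of line 3 was the lowest, and the groups did not overlap with TMM scaling. Scaled by total counts they did, with treated line 4 above untreated line 5. The mean was 91.3 ± 19.8 CPM with and 123 ± 6.27 CPM without doxycycline (SD, n = 3 each), a log2 fold change of -0.43 (SE 0.16) that did not pass (edgeR adjusted p = 0.221). Within line 3 the ratio with over without doxycycline was 0.562 (95% exact counting interval 0.528 to 0.597), within line 4 it was 0.826 (0.787 to 0.868) and within line 5 it was 0.835 (0.792 to 0.880). These intervals cover counting error only and not the difference between cultures. Line 3 was lowest both in this ratio and in the share of Npm1 left, while the intervals of lines 4 and 5 overlapped for Hif1a. Scaled by total counts in place of TMM, the ratios of Hif1a were 0.518, 0.906 and 0.877 in lines 3, 4 and 5, which turns the order of lines 4 and 5 round. No order of the 3 lines was tested. Of the exonic bases of Hif1a, 8.11% are shared with the annotated genes Gm15283, on the opposite strand, and Gm49321.

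The hydroxylases that act on the HIF subunits are targets as well and close a feedback loop. Egln1 (chromosome 8, 124908587 to 124949324), the main HIF prolyl hydroxylase of most cells, was at 71.7, 54.7 and 47.0 CPM with doxycycline in lines 3, 4 and 5, against 67.5, 89.0 and 66.4 CPM without it. Lines 4 and 5 were lower with doxycycline and line 3 was not, and the groups overlapped (log2 fold change -0.36, SE 0.18, edgeR adjusted p = 0.352). Egln3 (chromosome 12, 54178981 to 54203860), a relative of Egln1 that hypoxia induces strongly, was at 95.4, 98.07 and 76.7 CPM with doxycycline, against 116, 133 and 98.14 CPM without it. Each line was lower with doxycycline, by a like ratio of 0.822, 0.738 and 0.781, but the highest treated library and the lowest untreated one were nearly equal (log2 fold change -0.36, SE 0.15, edgeR adjusted p = 0.271).

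Sequences before the transcription start were examined for the core letters of the hypoxia response element. RefSeq promoter windows on GRCm38.p6, the build named mm10, were found for 9 of the 10 genes, all but Ndrg1, as 10 windows since Vegfa has 2. The letters ACGTG or GCGTG, on either strand and counting overlapping matches, were present in the 250 bases before the start in 9 of the 10 windows and in 38.6% of the 32851 windows in the table. The 3 windows that hold a match and lie wholly before the annotated start of their gene are shown, with these letters, or their complement CACGT or CACGC, in capitals. They belong to Adm, which had the largest fitted difference of the 10 genes, Egln3, lower in each line, and P4ha1, far below its untreated level in 1 line. Adm is at chr7:110627407-110627656 (plus strand), Egln3 at chr12:54203875-54204124 (minus strand) and P4ha1 at chr10:59323046-59323295 (plus strand). Each is printed 5′ to 3′ in the direction of transcription and ends at the base before the RefSeq start.
Adm: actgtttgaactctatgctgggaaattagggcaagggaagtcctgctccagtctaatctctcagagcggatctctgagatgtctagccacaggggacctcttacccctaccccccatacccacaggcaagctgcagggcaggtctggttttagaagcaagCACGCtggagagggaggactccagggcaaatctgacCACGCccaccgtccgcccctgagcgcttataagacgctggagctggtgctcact
Egln3: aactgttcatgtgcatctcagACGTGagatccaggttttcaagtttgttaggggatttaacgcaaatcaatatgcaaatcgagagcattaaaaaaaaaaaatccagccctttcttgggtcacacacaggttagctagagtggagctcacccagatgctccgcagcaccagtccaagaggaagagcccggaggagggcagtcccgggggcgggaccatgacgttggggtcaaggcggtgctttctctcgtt
P4ha1: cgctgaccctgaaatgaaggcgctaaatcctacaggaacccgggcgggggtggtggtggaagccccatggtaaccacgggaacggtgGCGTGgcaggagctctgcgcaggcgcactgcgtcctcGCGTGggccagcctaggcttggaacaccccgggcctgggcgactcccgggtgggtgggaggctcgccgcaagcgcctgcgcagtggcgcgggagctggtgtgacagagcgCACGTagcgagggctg
Adm held 2 matches, whose first bases lie 90 and 54 bases before the start, Egln3 held 1 at 229 bases and P4ha1 held 3 at 163, 126 and 16 bases. Bnip3 held 5 matches, the most among the 10 windows, and Car9 held 1. Of the windows of Vegfa, that at the upstream start held no match and that at an internal start held 2. A match of letters is a description of the sequence and does not show binding.

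The genes for secreted factors of vessels were lower with doxycycline in each line. Vegfa (chromosome 17, 46016993 to 46032369), the main growth factor for endothelial cells, was at 210.5, 181 and 211 CPM in lines 3, 4 and 5 with doxycycline, against 305, 276 and 250.5 CPM without it. All 3 treated libraries lay below all 3 untreated ones. Its mean was 201 ± 17.1 CPM with and 277 ± 27.1 CPM without doxycycline (SD, n = 3 each), and its log2 fold change of -0.47 (SE 0.13) had the smallest adjusted p of the 10 genes (edgeR adjusted p = 0.116). DESeq2 gave Vegfa an adjusted p of 0.0405, and over 16 alternatives the adjusted p of Vegfa ran between 0.0309 and 0.560. Adm (chromosome 7, 110627661 to 110629820), which encodes the vessel-widening peptide adrenomedullin, was at 8.56, 3.96 and 2.18 CPM with doxycycline, against 12.8, 13.4 and 5.18 CPM without it. Untreated line 5 was below treated line 3, so the groups overlapped although each line was lower with doxycycline. The ratio was 0.670 in line 3, 0.296 in line 4 and 0.421 in line 5, with 57 to 187 counts per treated library, and the log2 fold change of -1.11 (SE 0.47) was the largest of the 10 (edgeR adjusted p = 0.278).

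Car9 (chromosome 4, 43506966 to 43513729) encodes carbonic anhydrase 9, a cell-surface enzyme that lets cells export acid and is widely used as a marker of hypoxia. It was weakly expressed, at 4.62, 4.92 and 4.48 CPM in lines 3, 4 and 5 with doxycycline, against 6.28, 8.07 and 7.45 CPM without it. The treated libraries lay close together and all below the untreated ones. The means were 4.67 ± 0.226 CPM with and 7.27 ± 0.912 CPM without doxycycline (SD, n = 3 each), which is -0.63 on the log2 scale (SE 0.20; edgeR, adjusted p = 0.142). Its counts, 101 to 149 per treated and 163 to 206 per untreated library, give wide intervals within a line, and in line 3 the ratio of 0.737 had an interval of 0.569 to 0.95. An antisense gene, Gm12454, shares 9.29% of its exonic bases.

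Bnip3 (chromosome 7, 138890836 to 138909519), a receptor of the outer mitochondrial membrane for mitophagy, was at 393, 289 and 245 CPM in lines 3, 4 and 5 with doxycycline, against 402, 352 and 288 CPM without it. The lines stood in the same order in both groups, and the groups overlapped (log2 fold change -0.17 with SE 0.19, edgeR adjusted p = 0.730). The antisense gene Gm45507 shares 22.3% of its exonic bases. Without a stated strand setting it is not known how reads in the shared bases were counted. P4ha1 (chromosome 10, 59323296 to 59373304), the catalytic subunit of the hydroxylase that stabilises collagen, was at 170.3, 81.8 and 127 CPM with doxycycline, against 163, 147 and 132 CPM without it. Line 4 alone was far from its untreated level, with a ratio of 0.558 (0.530 to 0.587), and the log2 fold change of -0.22 (SE 0.22; by edgeR, adjusted p = 0.686) became 0.01 without the treated library of line 4.

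Ndrg1 (chromosome 15, 66929318 to 66969640), a stress-response gene induced by hypoxia, was higher with doxycycline in line 3 and lower in lines 4 and 5. It was at 149.9, 85.5 and 77.4 CPM in lines 3, 4 and 5 with doxycycline, against 129.7, 169 and 132 CPM without it. The ratio was 1.16 (95% exact counting interval 1.1 to 1.21) in line 3, 0.507 (0.482 to 0.532) in line 4 and 0.587 (0.555 to 0.620) in line 5, and over the 3 lines the log2 fold change was -0.46 (SE 0.23, edgeR adjusted p = 0.363). Antisense genes share 8.43% of its exonic bases. Ankrd37 (chromosome 8, 45996902 to 46005707), an ankyrin repeat gene and known HIF target, was at 39.4, 20.6 and 14.1 CPM with doxycycline, against 43.2, 32.6 and 24.6 CPM without it. Treated and untreated libraries overlapped, with line 3 highest and line 5 lowest in both groups (log2 fold change -0.44, SE 0.33, edgeR adjusted p = 0.561). Exons of Lrp2bp and Ufsp2 on the opposite strand share 26.4% of its exonic bases.

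The lines differed in how far the hypoxia genes lay from their untreated level. They are named after their hairpins, so line and hairpin cannot be told apart. Within line 3 the median log2 ratio of the 9 targets was -0.14, with 6 of 9 below 0; within line 4 it was -0.70 and within line 5 it was -0.50, with 9 of 9 below 0 in each. Over all genes tested with counts in all 6 libraries these medians lay between -0.01 and 0.00. Hif1a ran the other way, with a log2 ratio of -0.83 in line 3, -0.28 in line 4 and -0.26 in line 5. The line with the least Npm1 left and the lowest treated Hif1a was thus the one whose targets were nearest to their untreated level. The order of lines seen in the targets was also that of the 7 epithelial markers, with medians of 0.03, -0.67 and -0.22 in lines 3, 4 and 5. It was not that of 7 other genes of oxygen sensing and HIF degradation, with 0.20, 0.19 and 0.05. With 1 library per line and condition the difference between lines was not tested. The treated libraries of lines 3 and 4 also lay at opposite ends of the 6 libraries in measures of the sequencing. Treated line 3 had the fewest genes with counts (20537), the most reads without a unique alignment (37.8%) and the lowest TMM factor (0.896). Treated line 4 had the most genes with counts (22498), the fewest such reads (31.4%) and the highest TMM factor (1.109). The part of these measures in the difference between lines was not tested. Scaling by total counts in place of TMM shifts the median of all genes by -0.11 in line 3 and by 0.13 in line 4, and relative to that shift the pattern is the same. Without allowing for it, the ratios of Egln1 and P4ha1 in line 3 become 0.979 and 0.962, and that of Ndrg1 becomes 1.07, while the ratio of P4ha1 in line 5 becomes 1.01. The targets below 0 are then 8 of 9 in line 3, 9 of 9 in line 4 and 8 of 9 in line 5.

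**Figure D2:**
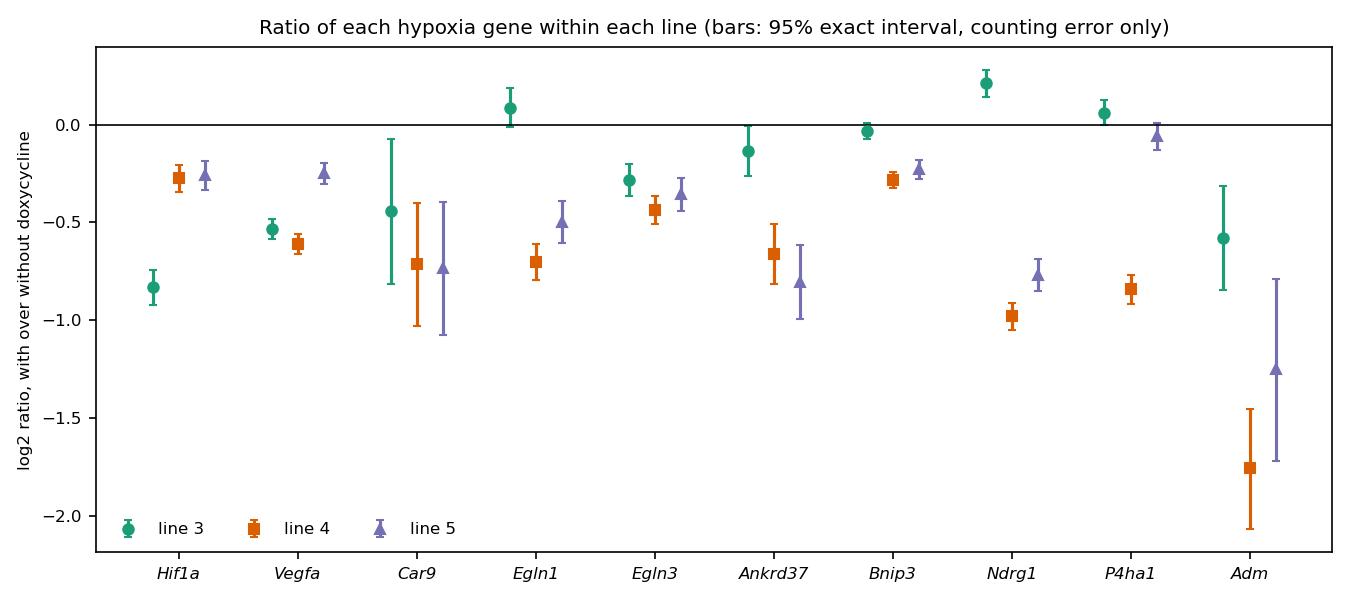
Log2 ratio of the CPM with over without doxycycline (y axis) for each hypoxia gene within line 3, line 4 and line 5, with 95% exact intervals that cover counting error only. Line 3 is lowest for Hif1a, at -0.83, and is the highest of the lines for Egln1, Egln3, Ankrd37, Bnip3, Ndrg1, P4ha1, Car9 and Adm, with Ndrg1 at 0.21.

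When differences between the lines were tested, allowing for doxycycline, 0 of the 10 genes passed, as did 0.0% of all genes tested (edgeR adjusted p of 0.868 to 0.942 for the 10). This asks whether levels differ between lines in both groups alike, with few residual degrees of freedom. It does not test whether the response to doxycycline differs between lines. At an unadjusted p under 0.05, 3 of the 10 differed between lines, Ankrd37, Adm and Bnip3, against 4.59% of all genes tested.

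The number of hypoxia genes called changed most when the treated library of line 3 was left out. Calls over all genes then also went from 332 to 1551, and the cause was not tested. The library left out had the lowest total of counts in genes (24391198) and the fewest genes with counts (20537) of all libraries. Without it, 5 of the 10 passed and all 5 were lower, Vegfa, Egln1, Ankrd37, Ndrg1 and Adm, where 5.79% of all genes tested were called lower and 4.57% higher. The log2 fold changes without that library were -0.50 for Vegfa, -0.54 for Egln1, -0.94 for Ankrd37, -0.81 for Ndrg1 and -1.75 for Adm, while that of Hif1a was -0.26 and did not pass. Without both libraries of line 3, 1 of the 10 passed, Ndrg1, at -0.88, where 2.71% of all genes tested were called lower and 1.8% higher. None of the 10 passed when another library or line was left out, and the median over the 10 stayed between -0.52 and -0.27 across these 9 fits.

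**Figure D3:**
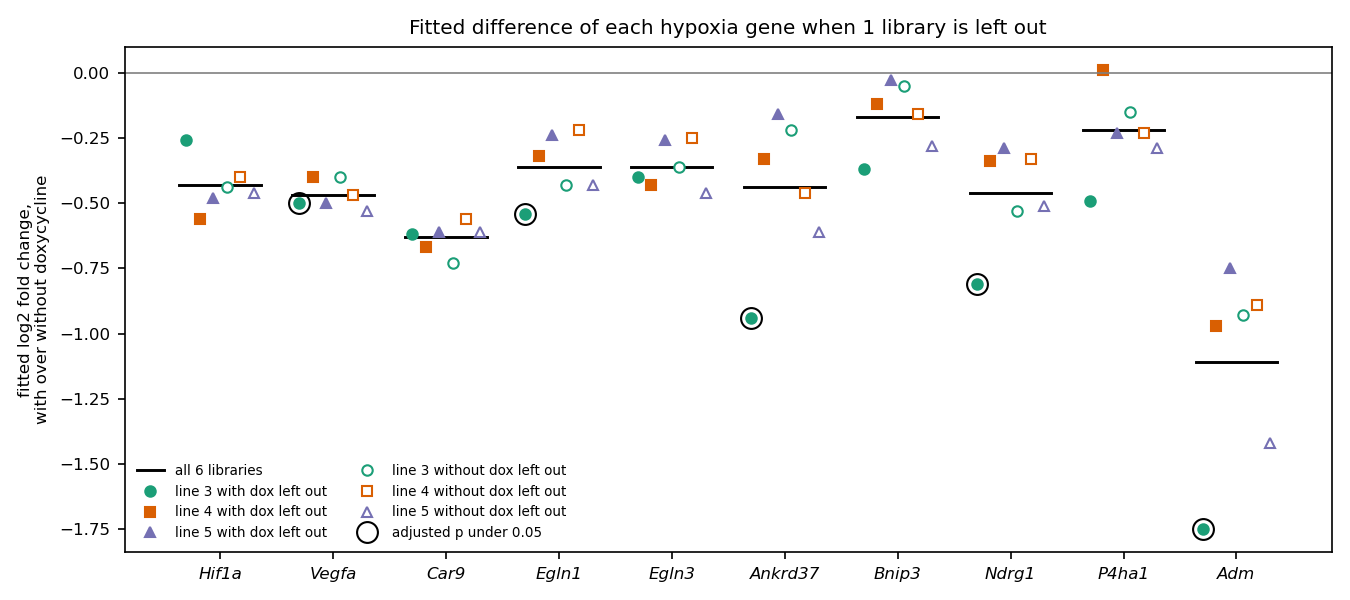
Fitted log2 fold change of each hypoxia gene with over without doxycycline (y axis) over all 6 libraries (black bars) and with 1 library left out (markers by line, filled where a treated library and open where an untreated one is left out). Rings mark an adjusted p under 0.05, which 5 genes reach, each of them when the treated library of line 3 is left out.

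Per kilobase of the longest annotated transcript, Bnip3 was the most abundant of the 10 and Car9 the least, in both groups. Bnip3 was at 176 ± 43.2 RPKM with and 198 ± 32.6 RPKM without doxycycline, and Vegfa at 58.2 ± 4.94 and 80.3 ± 7.84 RPKM (SD, n = 3 each). Egln3, P4ha1, Ankrd37 and Ndrg1 came next, at means of 33.8, 31.2, 26.6 and 25.8 RPKM with and 43.5, 36.4, 36.1 and 35.4 RPKM without doxycycline, and neighbours in this order overlapped in both groups. Hif1a was at 19.3 ± 4.20 and 26.1 ± 1.33 RPKM and Egln1 at 16.1 ± 3.51 and 20.7 ± 3.55 RPKM with and without doxycycline. Hif1a and Egln1 overlapped among treated libraries. Among untreated ones they all but met, with the lowest Hif1a and the highest Egln1 both at 24.8 RPKM. Adm at 3.53 ± 2.37 and 7.52 ± 3.29 RPKM and Car9 at 2.31 ± 0.112 and 3.59 ± 0.451 RPKM overlapped in both groups. The order of the 10 means was the same with and without doxycycline.

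Other genes of the pathway were taken from lists by role. Among the other HIF subunits, 0 of 4 passed. Arnt, the constant partner, was at 42.6 ± 2.94 CPM with and 41.3 ± 2.71 CPM without doxycycline (SD, n = 3 each; log2 fold change 0.04, SE 0.12), and Epas1, which encodes the related HIF-2 alpha subunit, had a log2 fold change of -0.19 (SE 0.20). Hif3a, a subunit that can oppose the others, was at 1.79, 2.81 and 1.42 CPM in lines 3, 4 and 5 with doxycycline, against 4.08, 3.29 and 2.88 CPM without it, and Arnt2 stayed under 1 CPM (-0.76 for Hif3a and -0.74 for Arnt2 on the log2 scale, edgeR adjusted p = 0.261 and 0.498). Among 7 other genes of oxygen sensing and HIF degradation, 0 passed and the median was 0.13, with 5 above 0. Vhl had a log2 fold change of -0.05 (SE 0.15). Eloc, elongin C of the same ubiquitin ligase, was at 304, 292 and 296 CPM with doxycycline, against 235, 193 and 221 CPM without it, so it was higher with doxycycline without overlap (log2 fold change 0.46, SE 0.13, edgeR adjusted p = 0.106; between 0.0230 and 0.549 over 16 alternatives). Its partner Rbx1 had a log2 fold change of 0.21 (edgeR adjusted p = 0.416). Of 4 coactivators and their inhibitors 0 passed. Cited2, which competes with HIF for its coactivators, was at 162, 92.0 and 93.4 CPM with doxycycline, against 159, 152 and 134 CPM without it, again with line 3 near its untreated level (log2 fold change -0.36, edgeR adjusted p = 0.442), and Cited4 had a log2 fold change of -1.29 at 1.06 CPM or less in each library (edgeR adjusted p = 0.259).

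Of 35 further targets outside glycolysis 32 were tested, leaving out Cox4i2, Ndufa4l2 and Lox, and 0 rose. The median of the 32 was -0.28, with 23 below 0. By line it was 0.07 in line 3, -0.50 in line 4 and -0.33 in line 5, the same order of lines as in the 9 targets. The 18 glycolytic targets had a median of -0.28, with 16 below 0 and 0 passing, and by line 0.17, -0.59 and -0.35. Among them the glucose transporter Slc2a1 and the phosphofructokinase Pfkp differed by -0.50 and -0.42 on the log2 scale without passing (edgeR, adjusted p = 0.186 and 0.176).

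**Figure D4:**
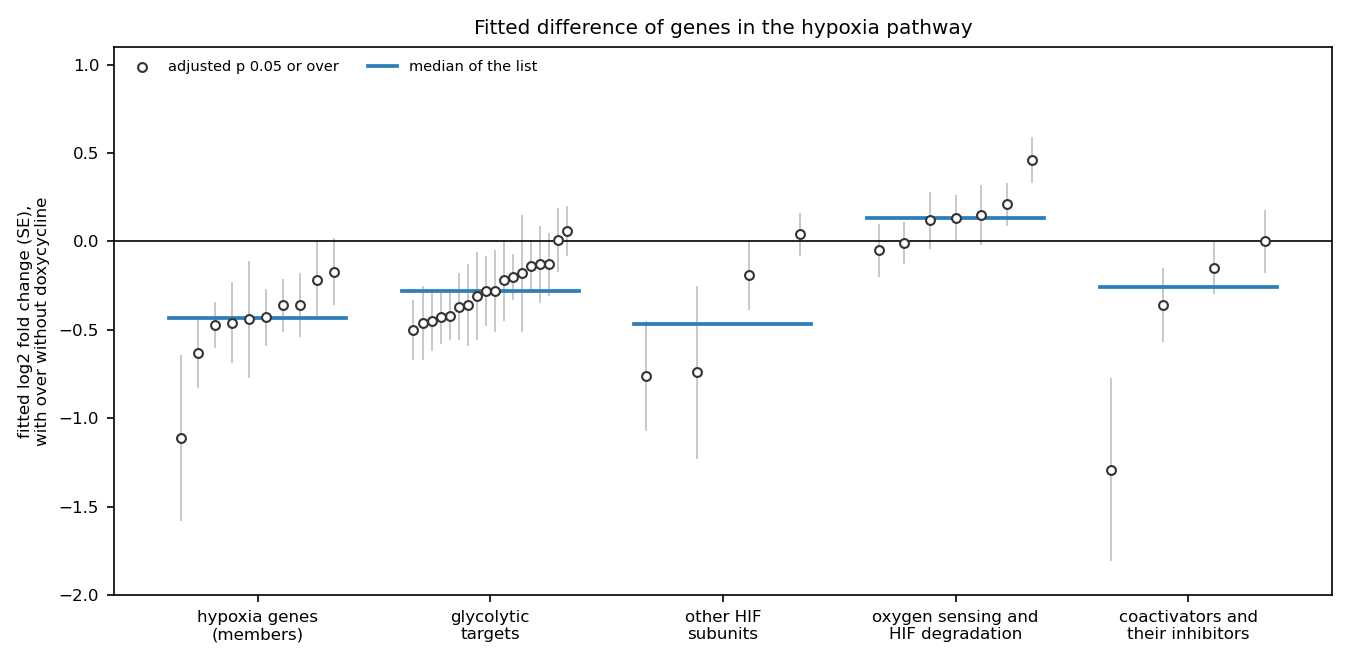
Fitted log2 fold change with over without doxycycline and its SE (y axis) for the tested genes of 5 lists of the hypoxia pathway (x axis), ordered by value within each list, with the median of the list as a blue bar. All 10 members and 16 of 18 glycolytic targets lie below 0, while 5 of the 7 genes of oxygen sensing lie above it, and none of the genes shown passed the edgeR test (adjusted p under 0.05).

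The genes most like the 9 targets were sought among 9805 genes whose average reached 5 CPM, by the Pearson correlation of log2(CPM + 0.5) over the 6 libraries with the mean standardized level of the targets. The 6 points come from 3 lines and share their scaling, so this is a description. Tbx15 came first (r = 0.984), followed by Dlg1, Bcl2l11 and Pgm2l1 (r = 0.982 each) and Bhlhe41 (r = 0.981). Bhlhe41, a hypoxia-inducible repressor that is also on the list of further targets, was at 7.78, 3.80 and 3.71 CPM in lines 3, 4 and 5 with doxycycline, against 8.24, 9.88 and 7.10 CPM without it. These 5 genes were picked for their likeness to the targets, so a treated line 3 near its untreated level follows from the choice.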

How the data were processed

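Total RNA of KP cells, 3 lines each with and without doxycycline, was sequenced. The labels give each library's group and line. For each library the authors deposited raw counts of reads per gene. Build mm10 and the tools STAR, HTSeq, Picard, CASAVA, bedtools, DESeq2 and R 3.3.0 are named, per the submitters' processing notes. Neither source used here gives the strand setting or annotation release, so it is not known how reads of overlapping genes on opposite strands were counted. The 5 rows that name no gene, which held 43.7% to 47.7% of reads, were left out. Among them were reads ambiguous between genes, 2.93% to 3.26% of reads per library.

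Symbols, coordinates and lengths of the longest transcript came from GENCODE M21 of the same build, with 48144 of 48526 identifiers matched. The test was that of edgeR 4.0.16 in R 4.3.3 (low counts removed by filterByExpr, library sizes scaled by TMM, quasi-likelihood test between the groups over all 14531 genes, Benjamini-Hochberg adjustment at 0.05). The biological coefficient of variation was 18.0%. CPM use TMM-scaled library sizes, and the SE was derived from the fold change and its F statistic. The lines stand in for replicates, so p-values set the difference between groups against the spread between lines within a group. Intervals of ratios within a line are exact binomial at 95%, from Python 3.11.15 with scipy 1.17.1.

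Line numbers pair the samples because both libraries of a number come from the same stable line. Deviations from the group means correlated with r = 0.0048, 0.0674 and 0.0276 within lines 3, 4 and 5. Between treated and untreated libraries of different lines r ran from -0.102 to 0.067, so the values of the same line did not stand apart. Reported values come from the fit that leaves the line out. The members, the lists of genes, the tests and the alternatives were chosen with earlier results of these data known. Named were Npm1, the 10 members, from each list up to 4 genes that passed or else the 2 of smallest p, and 5 genes of like pattern; the other genes given with values were chosen after their values were seen. Other settings tried were scaling by RLE, all genes unfiltered, a minimum of 5 CPM, the line as a block, DESeq2 1.42.0, limma-voom (limma 3.58.1), an adjusted p under 0.1, each library and each line left out, and offsets for the GC content and length of transcripts. The fits were tested on simulated data with the spread of each gene estimated from these libraries. There edgeR recovered 10.4% of changes of 1.5-fold, 64.2% of 2-fold and 90.9% of 4-fold. A change of 1.5-fold was thus seldom called. Calls within the list of further targets outside glycolysis are not reported here in full.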

Additional observations from a re-analysis of the deposited data

Results flagged for a closer look

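Ndrg1 differed in direction between lines, with intervals of counting error that did not include 1 on either side. Its ratio with over without doxycycline was 1.16 in line 3, 0.507 in line 4 and 0.587 in line 5. Each line had 1 library per condition, so the difference between lines was not tested. Scaled by total counts the ratios were 1.07, 0.555 and 0.617.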

How the results depend on the processing

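All 10 hypoxia genes kept a fitted log2 fold change below 0 under each of the 16 alternative fits, except P4ha1, which ran between -0.49 and 0.01 when a library or line was left out. The median over the 10 was between -0.46 and -0.40 under the 7 fits on all 6 libraries. Of the 10 genes, 0 passed with RLE scaling, a minimum of 5 CPM, limma-voom, the length and GC offsets or an adjusted p under 0.1, 1 passed with no filter on low counts (Adm) and 1 with DESeq2 (Vegfa), and 0 to 5 passed when a library or line was left out. Over all alternatives the adjusted p ran between 0.0447 and 0.884 for Egln1, 0.0242 and 0.894 for Ankrd37, 0.00531 and 0.900 for Ndrg1, and 9.47e-05 and 0.803 for Adm. The count of 332 genes called in all became 593 at an adjusted p under 0.1, 1052 with no filter, 49 with a minimum of 5 CPM, 720 with DESeq2 and 62 to 1551 when a library or line was left out; the cause was not tested. With the line as a replicate block 243 genes and 0 of the 10 passed. Scaled by total counts, the median log2 ratio of the 10 within lines 3, 4 and 5 was -0.33, -0.55 and -0.36, in place of -0.21, -0.68 and -0.43. In the reported edgeR fit, with 3 lines and the spread seen between them, none of the differences of the 10 genes was called. For Car9 and Adm, with 57 to 342 counts per library, counting error adds to that spread.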
